A study of Mus musculus with 14 samples.

Results

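Collagen genes were studied in RNA-seq libraries of embryonic mouse hippocampus. The members were the genes whose symbol has the form of a collagen alpha chain (Col, a type number, the letter a and a chain number), and 43 of the 17423 named genes with a mean of at least 1 normalized fragment were such genes. They comprised 11 fibrillar collagens, 8 basement membrane collagens and 24 others. Each of them was found as 1 locus of the gene table. The 43 genes lie on 15 chromosomes, and 0 of them in the region of chromosome 16 that is triplicated in Dp(16)1Yey/+ mice. Col8a1 is on chromosome 16 (57624258 to 57754737 in GRCm38), outside the region, which runs from 75540514 to 97962622. COL6A1, COL6A2 and COL18A1 are genes of human chromosome 21, but their mouse counterparts are on chromosome 10, which is duplicated in neither model.

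Collagens are secreted proteins in which 3 chains wind into a triple helix. Fibrillar collagens (types I, II, III, V and XI among them) form the fibrils of connective tissue, the basement membrane collagens (type IV, with the related types XV and XVIII) form sheets under epithelia and around blood vessels, and the remaining types sit on fibrils, form beaded filaments or networks, or cross the cell membrane. In the embryonic brain, fibrillar collagens are made mainly by the fibroblasts of the meninges and around larger vessels, and type IV collagen mainly by endothelial and mural cells and by the meninges.

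Hippocampi came from 2 heterozygous lines, with 3 libraries of 189N3 mice (a BAC adds a copy of the whole Dyrk1a gene) and 3 of wild-type littermates in the first line. In the second, 4 libraries were from Dp(16)1Yey/+ mice, in which the part of chromosome 16 syntenic to human chromosome 21 is duplicated on 1 homologue, and 4 from wild-type littermates. The embryos are described as E17 in one place of the study and as E16 to E18 in another, and the labels give no age, so that age cannot be told apart from the spread within a group. For the study's neuron cultures heterozygous mice were crossed with C57BL6, and the cross behind the RNA-seq embryos is not given separately. Both the extra BAC and the duplication are present in every cell of the embryo and are not limited to the hippocampus. Hippocampi were dissected, and whether the adjoining meninges were removed is not stated. The share of RNA from meninges and vessels was not measured, and fewer cells of a type cannot be told apart from less RNA per cell. Replicate numbers are those of the labels and start at 0.

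Libraries held 20809131 to 29098453 fragments, and values below are normalized fragments per locus (1 fragment was worth 0.816 to 1.21 units). All 10 markers of hippocampal neurons and progenitors were detected in all libraries, with a summed level of 23155 to 34522. Dyrk1a stood at 3938 to 5877 in 189N3 mice and at 2126 to 2977 in their littermates. Over 19 genes of the triplicated region, the median log2 difference from the Dp(16)1Yey littermates was 0.72, 0.39, 0.55 and 0.60 in Dp(16)1Yey/+ replicates 0 to 3. The library labelled Dp(16)1Yey replicate 1 was the lowest of these, and its Dyrk1a (2124) was below that of all 4 littermates (2397 to 3175). The library labelled 189N3 replicate 2 reached 0.52 on the same 19 genes, against -0.02 and 0.16 in the other 189N3 libraries. Values without one of these libraries are given beside many, though not all, of the results that it led. The littermates of Dp(16)1Yey/+ mice formed 2 pairs of nearly alike libraries, replicates 0 with 1 and 2 with 3, which differed by 1.43 and 1.55 times counting noise, against 5.98 to 13.0 times for the 10 other pairs within a group of this model. How many embryos stand behind these 4 libraries cannot be told from the values.

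Per kilobase of exon, Col4a1 was the most abundant collagen with a mean of 159 normalized fragments per kb over the 14 libraries. It was followed by its partner chain Col4a2 (83.4 per kb), Col12a1 (81.6 per kb), Col5a2 (66.5 per kb), Col19a1 (62.5 per kb), Col4a5 (60.9 per kb) and the type I and III chains Col1a1 (60.0 per kb), Col3a1 (51.3 per kb) and Col1a2 (48.0 per kb). At the other end were Col13a1 (a transmembrane collagen) and Col6a6, each with a mean of 0.42 per kb. The filter of a mean of 10 normalized fragments was passed by 36 of the 43 collagens in the 189N3 comparison and by 37 in the Dp(16)1Yey comparison. The genes below it in both comparisons were Col5a3, Col6a4, Col6a6, Col13a1, Col17a1 and Col7a1, and Col6a5 was below it in the 189N3 comparison only. Col5a3, a fibrillar chain that was not tested, was at 5.1, 1.6 and 4.2 in 189N3 mice and at 13.0, 11.7 and 13.3 in their littermates, without overlap, on a few fragments per library.

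The variation between libraries was unequal over the family. Col1a1 differed 77.7-fold between its highest and its lowest library, Col1a2 34.1-fold, Col8a2 31.0-fold, Col3a1 13.3-fold and Col8a1 13.1-fold. Basement membrane collagens varied 2.14-fold to 9.25-fold, with a median of 3.04-fold. The median was 3.42-fold for fibrillar, 2.96-fold for fibril-associated and 6.44-fold for beaded filament collagens. Col23a1 (1.84-fold) and Col20a1 (1.86-fold) varied least of the 37 genes with a mean of at least 10 over all libraries. Wild-type littermate replicate 0 of the 189N3 line had the highest value of all libraries for 13 of these 37 genes, and littermate replicate 2 of the Dp(16)1Yey line had the lowest for 10.

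**Figure D1:**
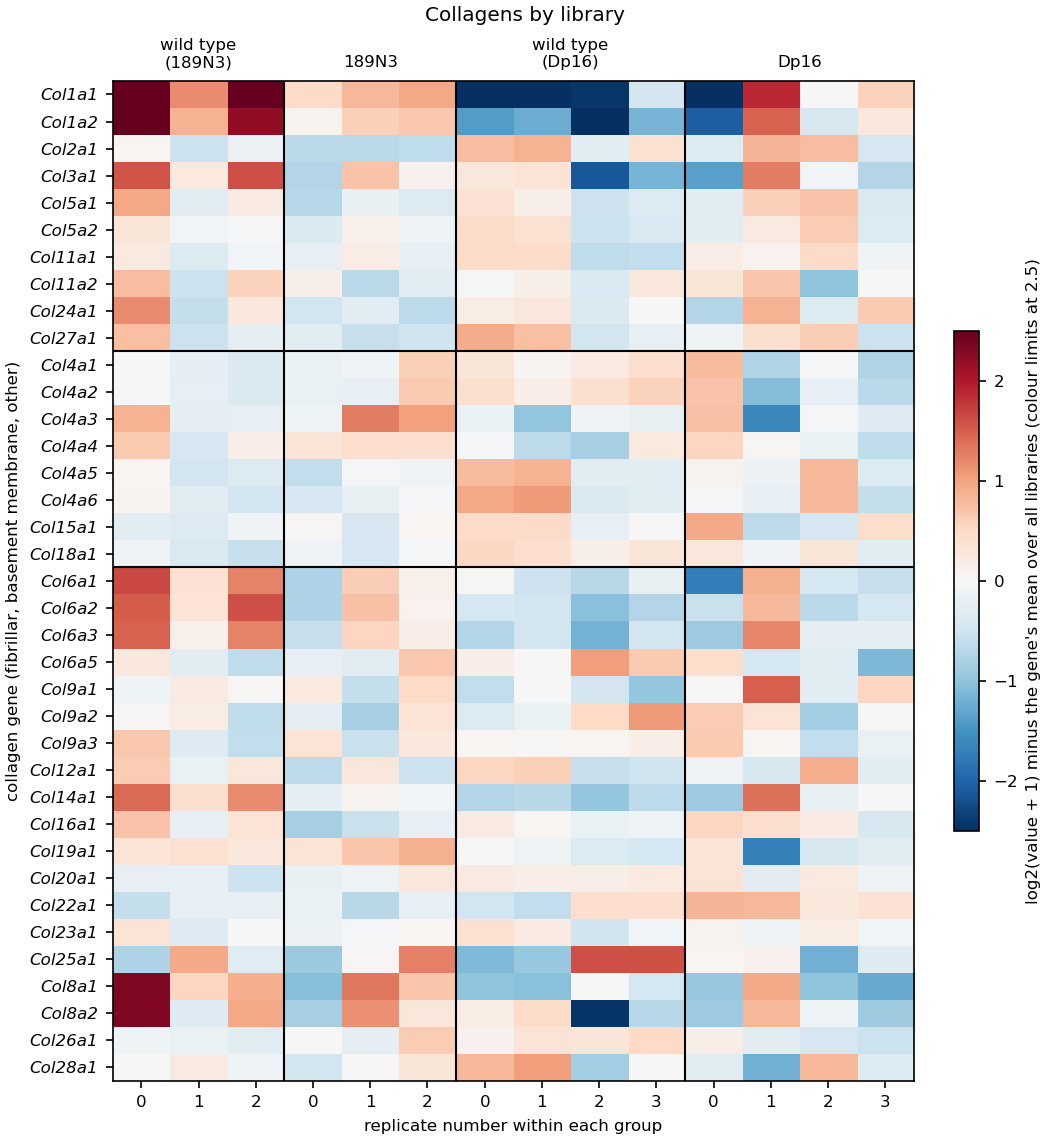
Heatmap of the 37 collagens with a mean of at least 10 (rows, in the order fibrillar, basement membrane, other) in the 14 libraries (columns, replicate numbers within each group). Colour gives log2(value + 1) minus the mean of the gene over all libraries; Col1a1, Col1a2, Col3a1, Col6a1, Col6a2, Col6a3 and Col14a1 are highest in wild-type replicates 0 and 2 of the 189N3 line and in the library labelled Dp(16)1Yey replicate 1.

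The first comparison asked which collagens differ in hippocampus with an extra copy of Dyrk1a alone. In 189N3 mice, 0 of 36 collagens passed an adjusted p-value of 0.05 in limma (0.0% of all 35899 loci tested did), 9 reached an unadjusted p-value of 0.05, and all 9 were lower than in the littermates. Over all loci this share was 1.87%, with 1.05% of loci lower and 0.825% higher. The 9 genes were the fibrillar Col1a1, Col1a2, Col3a1 and Col5a1, the type VI chains Col6a1, Col6a2 and Col6a3, and the fibril-associated Col14a1 and Col16a1. In all, 14 collagens had higher and 22 had lower means of log2 values, where 56.2% of all loci but 41.3% of the 14816 named loci were lower. The median over named loci was 0.04, and it was -0.10 without 189N3 replicate 2. The groups did not overlap for 5 collagens that were lower (Col1a1, Col1a2, Col2a1, Col14a1 and Col16a1) and for 1 that was higher (Col20a1), and over all loci this held for 2.99% and 1.99% (4.98% together). The count of 9 became 4 without 189N3 replicate 0, 5 without littermate replicate 0, 14 without littermate replicate 1 and 4 without littermate replicate 2. The share over all loci was not taken in these fits. With any 1 library left out, the largest unadjusted p-value in limma was 0.0070 for Col1a1, 0.0090 for Col1a2 and 0.029 for Col14a1, and it was above 0.05 for the other 6 genes.

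Each of the 10 fibrillar collagens tested had a lower mean in 189N3 mice, and their median log2 fold change was -0.63, beside -0.04 over all loci tested and 0.04 over named loci. The median was -0.31 without littermate replicate 0 and -0.97 without littermate replicate 1. Col11a1, at -0.02, turned to 0.01 with median-ratio size factors. The 8 basement membrane collagens were all higher, from 0.01 to 0.59 with a median of 0.21 (Col4a6 turned to -0.02 in edgeR), and 0 of the 8 reached an unadjusted p-value of 0.05. Of the 18 other collagens, 6 were higher and 12 lower (median -0.10). Members of a class are not replicates, and no test was made of a class. Without the library labelled 189N3 replicate 2, 9 of 10 fibrillar collagens were lower (median -0.60) and 5 of 8 basement membrane collagens were higher (median 0.05), and the count at an unadjusted p-value of 0.05 was again 9. In that fit 893 of 36208 loci were higher and 656 lower at this threshold, against 296 and 376 of 35899 with all libraries. Of named loci, 405 of 14784 were lower at it, against 120 of 14816 with all libraries.

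Type I collagen, the main collagen of skin, bone and tendon, is made of 2 chains of Col1a1 and 1 of Col1a2. Col1a1 (chromosome 11, 94936224 to 94953042, plus strand) was at 257, 331 and 365 normalized fragments in 189N3 replicates 0 to 2, and at 1601, 424 and 1141 in the littermates. The groups did not overlap, and littermate replicate 1 lay closest to the 189N3 mice. The log2 fold change was -1.54 (SE 0.38, limma unadjusted p = 0.0010, adjusted p = 1.00), and the exact two-sided permutation test gave p = 0.10, the smallest it can give for 3 against 3 samples. Without littermate replicate 1 the log2 fold change was -2.10 (limma adjusted p = 0.0046), and without littermate replicate 0 it was -1.14. Col1a2 (chromosome 6, 4504814 to 4541544, plus strand) was at 385, 548 and 578 in 189N3 mice and at 2168, 660 and 1692 in the littermates. Its log2 fold change was -1.44 (SE 0.36, limma unadjusted p = 0.0012, adjusted p = 1.00, exact permutation p = 0.10) and was -1.95 without littermate replicate 1 (limma adjusted p = 0.011). DESeq2 on the recovered fragments gave adjusted p-values of 0.020 for Col1a1 and 0.044 for Col1a2, the only setting with all 6 libraries and no block in which a collagen passed the threshold. The chains kept nearly one ratio in this line, with 0.60 to 0.67 fragments of Col1a1 per fragment of Col1a2 in 189N3 mice and 0.64 to 0.74 in the littermates. A locus on the opposite strand of Col1a1 was at 58.3 to 88.9 in 189N3 mice and at 109 to 320 in the littermates. Such an antisense locus with over 10% of the level of the gene was present at 6 collagens (Col1a1, Col2a1, Col11a1, Col11a2, Col12a1 and Col28a1). The libraries were stranded, but whether strand was used in counting is not given in the sources used here, so reads of these pairs may not be fully separated.

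Col3a1 (chromosome 1, 45311538 to 45349706, plus strand), which forms the thin fibrils of soft tissue together with type I, was at 236, 644 and 420 in 189N3 mice and at 1157, 461 and 1190 in the littermates. The groups overlapped through littermate replicate 1, and the log2 fold change was -1.10 (SE 0.39, limma unadjusted p = 0.012, adjusted p = 1.00), or -0.72 without 189N3 replicate 0. Col5a1, which starts fibril assembly with type I, was at 90.5, 130 and 116 against 288, 123 and 172 (log2 fold change -0.71, SE 0.31, limma unadjusted p = 0.036), and its log2 fold change was -0.38 without littermate replicate 0 (limma unadjusted p = 0.27). Its partner chain Col5a2, whose gene ends 24.6 kb from that of Col3a1 on the opposite strand, had a log2 fold change of only -0.19 (SE 0.24). The cartilage collagen Col2a1 was at 119, 120 and 122 in 189N3 mice and at 198, 133 and 173 in the littermates, without overlap (log2 fold change -0.46, SE 0.25, limma unadjusted p = 0.090). Col11a1 was at 484, 634 and 479.5 against 659, 439.5 and 529, so its groups overlapped widely.

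RefSeq (GRCm38.p6) promoter windows of 300 bases, 250 before and 50 after a start site, were found for 34 of the 43 collagens. Among the 9 genes lower in 189N3 mice at an unadjusted p-value of 0.05, the 250 bases before the start site of Col3a1, Col5a1, Col6a2 and Col6a3 hold no exon of the GENCODE annotation, and these are shown because the genes were lower together. Each is written 5′ to 3′ on the strand of its gene. They are chr1:45311288-45311537 for Col3a1 (plus strand), chr2:27886175-27886424 for Col5a1 (plus strand), chr10:76623631-76623880 for Col6a2 (minus strand) and chr1:90843972-90844221 for Col6a3 (minus strand). Capitals mark matches to a TATA box motif (letters TATAAA), a second upstream element of many promoters (letters CCAAT) and a GC box motif (letters GGGCGG). Both strands were searched, so that CCGCCC is a GC box motif read from the other strand.
Col3a1: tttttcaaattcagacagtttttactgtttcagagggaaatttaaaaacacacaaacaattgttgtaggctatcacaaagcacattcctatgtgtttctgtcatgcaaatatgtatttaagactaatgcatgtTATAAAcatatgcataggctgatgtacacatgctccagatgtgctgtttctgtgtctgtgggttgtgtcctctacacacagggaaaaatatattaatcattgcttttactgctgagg
Col5a1: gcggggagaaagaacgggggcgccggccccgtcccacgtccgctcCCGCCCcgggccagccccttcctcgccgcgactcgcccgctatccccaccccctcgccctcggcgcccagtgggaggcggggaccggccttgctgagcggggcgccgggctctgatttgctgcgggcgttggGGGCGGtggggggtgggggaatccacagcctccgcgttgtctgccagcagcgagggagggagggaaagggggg
Col6a2: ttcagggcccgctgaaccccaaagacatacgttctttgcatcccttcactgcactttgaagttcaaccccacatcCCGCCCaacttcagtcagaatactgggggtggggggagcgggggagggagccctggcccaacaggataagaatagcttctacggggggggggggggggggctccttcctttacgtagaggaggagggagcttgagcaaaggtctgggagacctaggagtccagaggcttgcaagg
Col6a3: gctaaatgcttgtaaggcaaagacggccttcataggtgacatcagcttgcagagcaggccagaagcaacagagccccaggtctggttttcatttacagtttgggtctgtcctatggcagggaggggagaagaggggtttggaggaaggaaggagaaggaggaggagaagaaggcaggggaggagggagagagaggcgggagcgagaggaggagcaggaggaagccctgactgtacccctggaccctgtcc
No searched motif is present in all 4 stretches: Col3a1 holds TATAAA, Col5a1 and Col6a2 hold GC box letters, and Col6a3 holds none of them. Among the 34 windows, TATAAA was present in 4 (11.8%, beside 14.2% of all 27025 genes of the table), CCAAT in 12 (35.3%, beside 37.9%) and GGGCGG in 22 (64.7%, beside 35.9%). For a collagen the window nearest the GENCODE gene start was taken, and for all genes the first listed window, so the shares are not built alike. The windows of Col25a1, Col27a1 and Col1a2 lay 49344, 1408 and 804 bases from that start. Those of Col4a1 and Col4a2 overlap in part. No match in the stretches shown overlapped a match to another motif. A match describes letters only, and binding was not measured here.

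**Figure D2:**
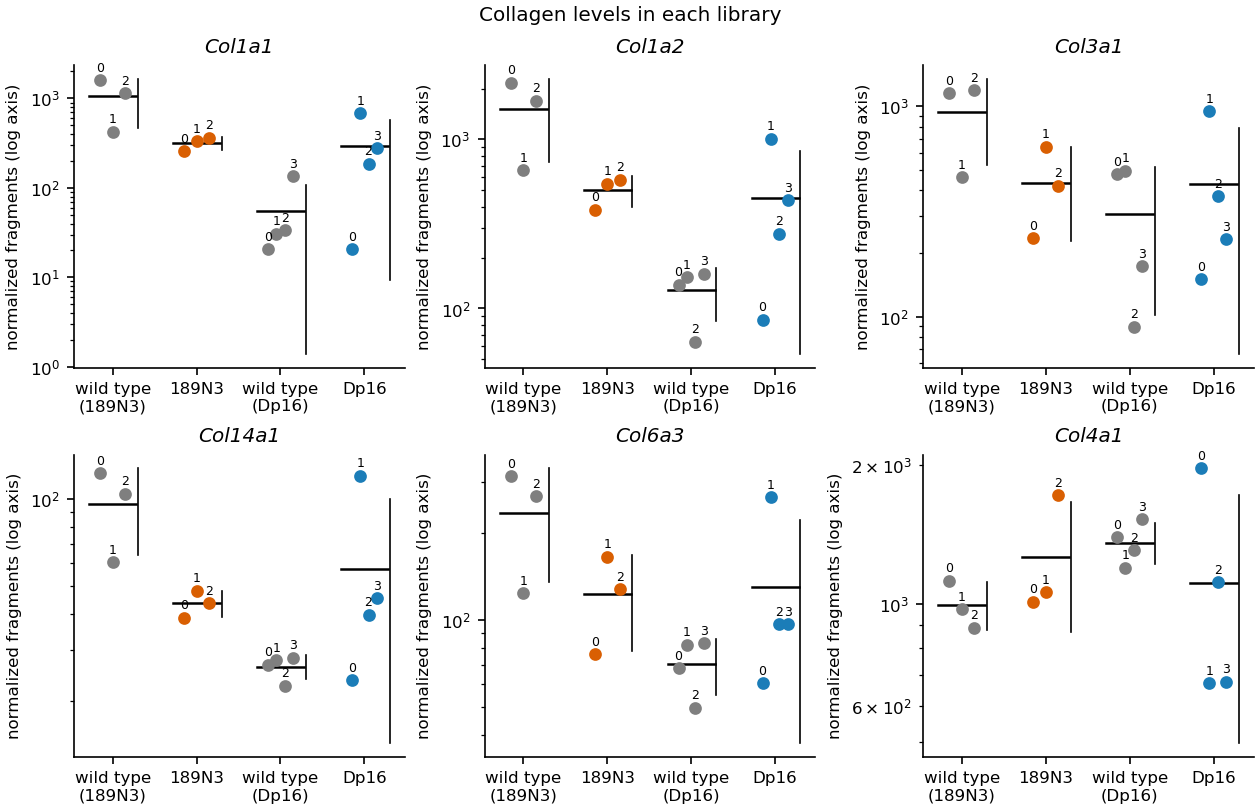
Normalized fragments (log axis) of 6 collagens in each library, with replicate numbers beside the points, horizontal lines at group means and vertical lines for ± 1 SD (n = 3 or 4). Col1a1, Col1a2 and Col14a1 are lower in all 189N3 libraries than in their littermates; in Dp(16)1Yey/+ mice the same genes range from littermate levels in replicate 0 to the highest values in replicate 1, and Col4a1 overlaps in both models.

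Type VI collagen forms beaded filaments that link cells to the fibrillar matrix. Its 3 classical chains were lower together in 189N3 mice, each at an unadjusted p-value under 0.05. Col6a1 was at 31.3, 84.0 and 59.2 against 172, 70.4 and 131 in the littermates (log2 fold change -1.10, SE 0.38, limma unadjusted p = 0.011). Col6a2 was at 23.7, 68.5 and 43.6 against 119, 52.3 and 127 (log2 fold change -1.14, SE 0.40, limma unadjusted p = 0.012). Col6a3 was at 76.1, 166 and 128 against 315, 124 and 268 (log2 fold change -0.89, SE 0.36, limma unadjusted p = 0.025). Each of the 3 genes overlapped, since 189N3 replicate 1 exceeded littermate replicate 1. Without 189N3 replicate 0, the log2 fold changes were -0.72 for Col6a1, -0.75 for Col6a2 and -0.59 for Col6a3. The remaining chains of the type, Col6a4, Col6a5 and Col6a6, had means of 4.4, 10.8 and 3.9 over all libraries and were not tested in this line.

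Col14a1 (chromosome 15, 55307750 to 55520803), which binds to the surface of type I fibrils, was at 38.9, 48.1 and 43.6 in 189N3 mice and at 122, 60.5 and 104 in the littermates. The groups did not overlap, with a log2 fold change of -1.06 (SE 0.30, limma unadjusted p = 0.0032, adjusted p = 1.00, exact permutation p = 0.10). Col16a1, another fibril-associated collagen, was at 33.0, 40.0 and 50.9 against 97.0, 51.4 and 74.9, with littermate replicate 1 just above the highest 189N3 mouse (log2 fold change -0.81, SE 0.31, limma unadjusted p = 0.019). Col12a1, the most abundant of this class, was at 740, 1423 and 803 against 1814, 1033 and 1415 and overlapped (-0.55, SE 0.29). The 9 fibril-associated collagens did not share a direction, and 4 were higher. Col20a1 was at 94.8, 98.7 and 132 in 189N3 mice, just above all littermates at 92.7, 93.0 and 73.7 (0.32, SE 0.26, limma unadjusted p = 0.25). Col19a1, which is made by subsets of neurons, was at 503, 645 and 741 against 496, 521 and 487 (0.31, SE 0.24). Col8a1 and Col8a2, the short-chain network collagens of endothelial and corneal sheets, were lower on average. Col8a1 was at 12.7, 70.2 and 45.7 against 145, 40.6 and 53.2 (-0.95, SE 0.54) and at -0.26 without 189N3 replicate 0. Col8a2 was at 22.0, 88.9 and 48.8 against 201, 31.6 and 78.5 (-0.78, SE 0.56) and at -0.12 without littermate replicate 0.

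Among basement membrane collagens, Col4a1 was at 1011, 1059 and 1723 in 189N3 mice and at 1123, 975 and 887 in the littermates. Col4a2 was at 462, 449.5 and 825 against 518, 452 and 405. Both rested on 189N3 replicate 2: their log2 fold changes of 0.31 (SE 0.26) and 0.28 (SE 0.27) were 0.063 and -0.0011 without it. The 2 genes are divergent neighbours on chromosome 8, with start sites 21 bases apart and transcripts that overlap by 22 bases, and they kept between 0.42 and 0.48 fragments of Col4a2 per fragment of Col4a1 in the 6 libraries of this line. The minor chains followed the same layout. Col4a3 and Col4a4 start 72 bases apart on chromosome 1, and Col4a5 and Col4a6 start 1309 bases apart on the X chromosome. The ratio of Col4a6 to Col4a5 stayed between 0.25 and 0.35 in the 14 libraries although both genes varied about 3-fold (2.80-fold and 3.20-fold). Col4a3, at 11.8, 32.6 and 27.0 against 24.3, 10.8 and 10.9, had the highest log2 fold change of the class (0.59, SE 0.44), on low values. Col15a1 and Col18a1, of which type XVIII releases endostatin, were at 0.12 (SE 0.28) and 0.16 (SE 0.25).

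The second comparison asked the same of Dp(16)1Yey/+ mice, which carry Dyrk1a and the rest of the syntenic region in an extra copy. Of 37 collagens tested, 0 passed an adjusted p-value of 0.05 in limma (0.0% of all 36024 loci did) and 5 reached an unadjusted p-value of 0.05, where 3.53% of all loci did. Of the 5, 4 were higher (Col1a1, Col1a2, Col9a1 and Col22a1; 1.71% of all loci were such) and 1 was lower (Col26a1; 1.82%). The groups overlapped for every collagen, whereas 2.45% of all loci did not overlap (1.72% higher, 0.736% lower). In all, 19 collagens were higher and 18 lower, beside 45.1% of all loci and 57.2% of the 14700 named loci that were lower. Fibrillar collagens had a median log2 fold change of 0.16 (7 higher, 3 lower), basement membrane collagens of -0.23 (2 higher, 6 lower) and the others of 0.01 (10 higher, 9 lower), beside 0.03 over all loci and -0.05 over named loci.

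Col1a1 was at 20.8, 688, 187 and 277 in Dp(16)1Yey/+ replicates 0 to 3 and at 20.6, 30.7, 33.5 and 134 in the littermates. Replicate 0 was at the lowest littermate level, whereas the other 3 libraries were above all littermates. The log2 fold change was 1.98 (SE 0.89, limma unadjusted p = 0.048, adjusted p = 0.91), and the exact two-sided permutation test gave p = 0.17, where the smallest possible p is 0.029. Col1a2 was at 86.0, 1010, 277 and 437 against 138, 153, 63.7 and 161 (log2 fold change 1.39, SE 0.60, limma unadjusted p = 0.040, exact permutation p = 0.14). When the library labelled Dp(16)1Yey replicate 1 was left out, these log2 fold changes were 1.30 for Col1a1 and 0.84 for Col1a2, and of all collagens only Col26a1 reached an unadjusted p-value of 0.05. Over all loci, 424 of 35999 were higher and 297 lower at that threshold in this fit, against 616 and 657 of 36024 with all libraries. Without Dp(16)1Yey/+ replicate 0, Col1a1 was at 2.96 and 9 collagens reached that threshold. The count of 5 also became 1 without Dp(16)1Yey/+ replicate 3 or littermate replicate 0, 3 without littermate replicate 1 and 2 without littermate replicate 2. In the fits without a library other than replicate 1 of the Dp(16)1Yey/+ mice, the share over all loci was not taken. Without the library labelled replicate 1, 5 fibrillar collagens were higher and 5 lower (median -0.02), and 3 basement membrane collagens were higher and 5 lower (median -0.16). The fibrillar median was also below 0 without littermate replicate 2 (-0.05), and the basement membrane median was -0.08 without littermate replicate 0. Where each nearly alike pair of littermates was averaged to 1 sample, 0 collagens reached it in limma.

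Col3a1 was at 151, 951, 375 and 233.5 against 477, 495, 89.6 and 174 (log2 fold change 0.44, SE 0.62), and it was -0.06 with the library labelled replicate 1 left out. The 4 littermates split by pair here, replicates 0 and 1 being 3.69 times replicates 2 and 3, while for Col1a1 the second pair was 3.28 times the first, through replicate 3. The same split was seen at other collagens: of the 37, the first pair exceeded the second more than 1.5 times at 12 and the second the first at 6, with 19 in between. It was widest at Col25a1, a transmembrane collagen of neurons, with 52.5 and 58.4 in the first pair and 349 and 345 in the second. In the Dp(16)1Yey/+ mice Col25a1 was at 118, 122, 49.0 and 90.6, between the 2 pairs or just under the first.

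Col26a1 was at 78.1, 58.8, 53.1 and 48.3 in Dp(16)1Yey/+ mice and at 76.2, 89.1, 87.4 and 100.1 in the littermates. Only replicate 0 reached the lowest littermate. Its log2 fold change was -0.58 (SE 0.20, limma unadjusted p = 0.016, adjusted p = 0.91, exact permutation p = 0.057), between -0.71 and -0.48 with any 1 library left out, with an unadjusted p-value of at most 0.050 in those limma fits. Col9a1, a chain of the cartilage collagen IX, was at 22.7, 65.8, 18.4 and 33.2 against 14.4, 22.8, 16.2 and 11.1 (0.95, SE 0.39, limma unadjusted p = 0.032), or 0.59 without the library labelled replicate 1, and its partner chains Col9a2 (-0.23, SE 0.40) and Col9a3 (-0.09, SE 0.25) did not share its direction. Col22a1, found at tissue junctions, was at 236, 232, 156 and 168 against 92.7, 85.1, 176 and 176 (0.63, SE 0.28, limma unadjusted p = 0.043), where the second littermate pair overlapped the Dp(16)1Yey/+ mice and the first did not.

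Of the 4 type VI chains tested in Dp(16)1Yey/+ mice, 2 were higher and 2 lower. Col6a5 was at 13.8, 7.05, 8.16 and 4.03 against 11.3, 9.90, 21.6 and 16.2, on few fragments. Its log2 fold change of -0.81 was the lowest of the 37 collagens, between -1.07 and -0.55 with any 1 library left out. Col6a1, Col6a2, Col6a3 and Col14a1 had their highest Dp(16)1Yey/+ value in replicate 1. Col6a3 was at 60.3, 267, 96.9 and 96.6 against 68.0, 82.1, 49.7 and 82.9 (0.67, SE 0.38), and at 0.25 without that library. Col14a1 was at 23.7, 120, 39.8 and 45.3 against 26.8, 27.7, 22.7 and 28.3 (0.84, SE 0.40, limma unadjusted p = 0.060), and at 0.40 without it. In type IV collagen the same library was the lowest of its group at Col4a1, Col4a2 and Col4a3. At Col4a4, Col4a5 and Col4a6 replicate 3 was the lowest, at 10.1, 304 and 76.5, against 16.5, 349 and 99.9 in replicate 1. Col4a1 was at 1969, 672, 1115 and 677 against 1397, 1198, 1305 and 1524 (-0.43, SE 0.30). Its log2 fold change was -0.24 without replicate 1 and -0.76 without replicate 0. Col4a2 was at 853, 247, 453 and 328 against 686, 583, 687 and 777 (-0.69, SE 0.32, limma unadjusted p = 0.051), and it was at -0.43 without replicate 1 and at -1.03 without replicate 0. Dp(16)1Yey/+ replicate 0 held the highest value of both chains among the 14 libraries, and replicate 1 the lowest.

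**Figure D3:**
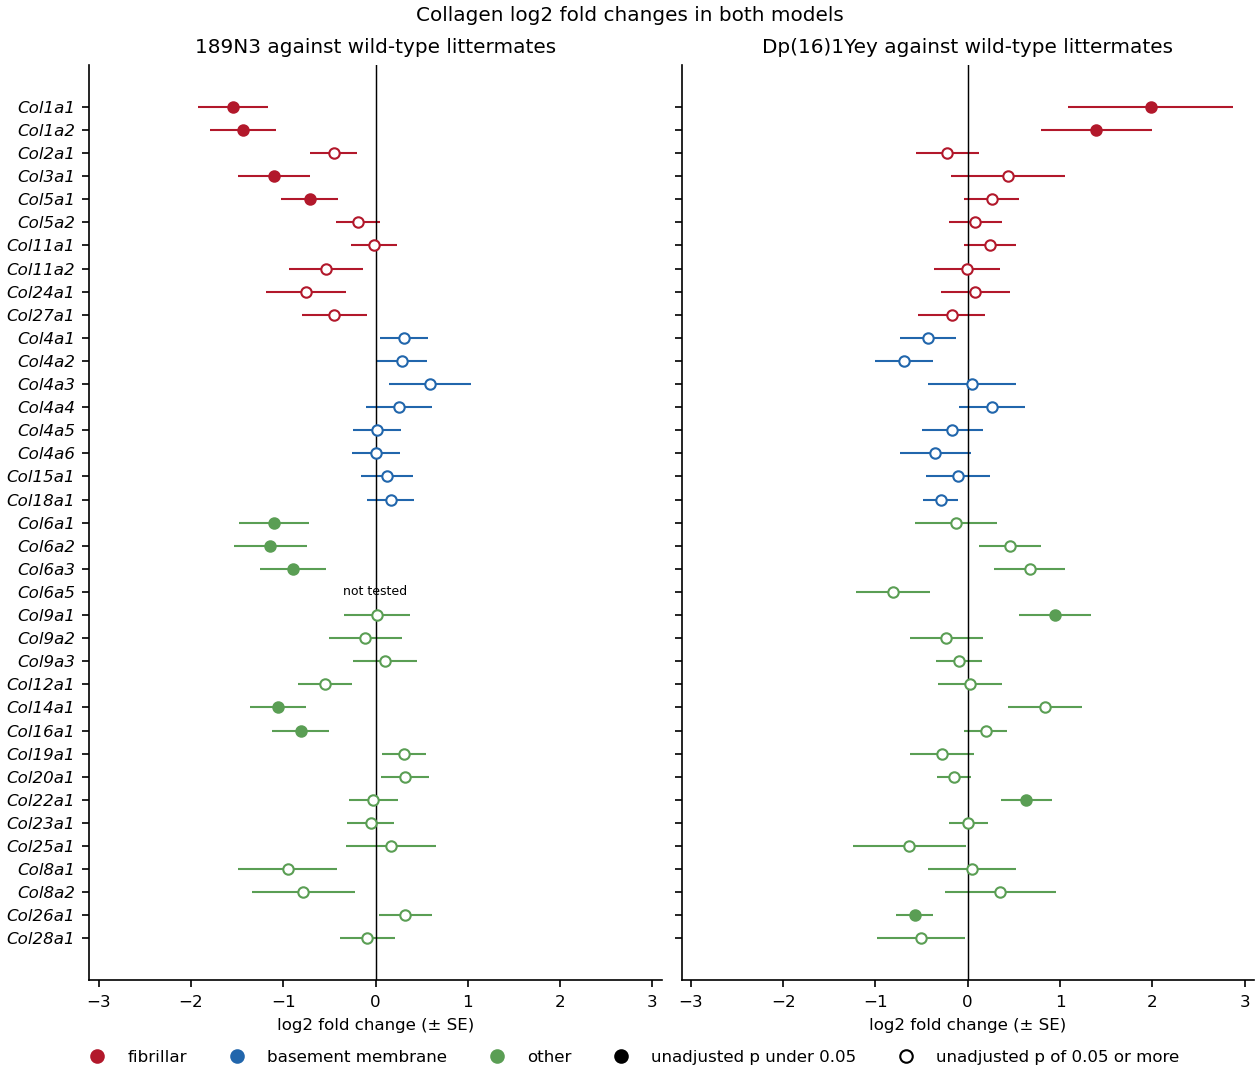
Log2 fold changes (points) with limma standard errors (lines) of the collagens in 189N3 mice (left, n = 3 against 3) and Dp(16)1Yey/+ mice (right, n = 4 against 4), coloured by class; filled points have an unadjusted p-value under 0.05, and no point passed an adjusted p-value of 0.05. Fibrillar collagens lie at or below 0 on the left and mostly near or above 0 on the right, basement membrane collagens at or above 0 on the left and mostly below 0 on the right.

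The third comparison tested whether the effect of genotype differed between the models, as the interaction of line and genotype over all 14 libraries (Dp(16)1Yey effect minus 189N3 effect). Of 37 collagens, 0 passed an adjusted p-value of 0.05 in limma (0.0% of 36045 loci did), and 7 reached an unadjusted p-value of 0.05, beside 2.66% of all loci. In 6 the difference was above 0 (1.53% of all loci were such) and in 1 below 0 (1.12%). Col1a1 had a difference of 3.53 on the log2 scale (SE 1.21, limma unadjusted p = 0.010). For Col1a2 it was 2.83 (SE 0.86, limma unadjusted p = 0.0045) and for Col14a1 1.90 (SE 0.56, limma unadjusted p = 0.0035), and the limma adjusted p-value was 0.92 for all 3. Col6a2 (1.60, SE 0.58), Col6a3 (1.57, SE 0.61) and Col16a1 (1.01, SE 0.38) followed, and the difference of Col26a1 was -0.90 (SE 0.33). Leaving out the library labelled Dp(16)1Yey replicate 1 gave the same 7 genes, with Col1a1 at 2.85, Col1a2 at 2.28 and Col14a1 at 1.46. Col6a2 was then at 1.26, Col6a3 at 1.15, Col16a1 at 0.93 and Col26a1 at -0.90. Over all loci, 410 of 36035 were above 0 and 183 below 0 at that threshold in this fit, against 553 and 404 with all libraries. Leaving out Dp(16)1Yey/+ replicate 0 gave 14 genes, and the share over all loci was not taken there. The difference was above 0 for all 10 fibrillar collagens (median 0.69) and below 0 for 7 of 8 basement membrane collagens (median -0.41), beside a median of 0.08 and 42.8% below 0 over all loci, and a median of -0.08 and 58.5% below 0 over the 14771 named loci. Without the library labelled replicate 1 the medians were 0.45 and -0.20. The fibrillar median was 0.34 without littermate replicate 0 and 1.10 without littermate replicate 1 of the 189N3 line.

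Wild-type littermates stood at different levels in the lines. The sum of the type I chains was 1084 to 3769 in the first line and 97.1 to 295 in the second, while 189N3 mice were at 642 to 943 and Dp(16)1Yey/+ mice at 107 to 1697. The ratio of Col1a1 to Col1a2 was 0.15 and 0.20 in the first pair of Dp(16)1Yey littermates and 0.24 in Dp(16)1Yey/+ replicate 0, and 0.53 to 0.84 in the other 11 libraries. The 3 libraries with a low ratio had Col1a1 levels of 20.6 to 30.7, and 1 other library, with 33.5, had a ratio of 0.53. Line and sampling cannot be told apart, since the labels do not say whether the lines were collected together.

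Genes that build, process, bind and degrade collagen were taken as lists. Of 22 genes for synthesis and export (prolyl and lysyl hydroxylases, chaperones and carriers), 10 were higher and 12 lower in 189N3 mice, with 0 at an unadjusted p-value under 0.05 and log2 fold changes from -0.22 (Serpinh1, the collagen chaperone) to 0.28 (Mia3, which loads collagen into transport vesicles). In Dp(16)1Yey/+ mice 5 were higher and 17 lower, again with 0 at that threshold. Of named loci, 41.3% were lower in 189N3 mice and 57.2% in Dp(16)1Yey/+ mice. Among genes for processing and crosslinking, Lox, the lysyl oxidase that crosslinks fibrils, had a log2 fold change of -0.92 in 189N3 mice (SE 0.42, limma unadjusted p = 0.044, and 0.076 without 189N3 replicate 2), and Tll1, a procollagen C-proteinase, of -0.76 in Dp(16)1Yey/+ mice (SE 0.24, limma unadjusted p = 0.0086), and the other 11 and 12 tested genes did not reach 0.05. Of 10 collagen receptors and of 9 genes for breakdown, 0 reached it in either model. The receptor gene Gpr56, whose product binds type III collagen in the developing cortex, was at 0.22 in 189N3 mice (limma unadjusted p = 0.37) and -0.37 in Dp(16)1Yey/+ mice (limma unadjusted p = 0.085).

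The laminins, nidogens and proteoglycans of basement membranes had opposite signs of their medians in the 2 models, as had the collagens of that class. In 189N3 mice 13 of 15 were higher with a median of 0.17, and in Dp(16)1Yey/+ mice 15 of 15 were lower with a median of -0.29. With all libraries, named loci had signs in the same directions, with 58.7% higher in 189N3 mice (median 0.04) and 57.2% lower in Dp(16)1Yey/+ mice (median -0.05). Leaving out 189N3 replicate 2 gave 10 higher of 15 (median 0.05), and leaving out Dp(16)1Yey replicate 1 gave 13 lower of 15 (median -0.19). Of named loci, 4616 were higher and 10168 lower in the first of these fits (median -0.10). In the second, 5515 were higher and 9182 lower (median -0.06). Of them only Agrn (agrin) had an unadjusted p-value under 0.05 in a single model, with -0.53 in Dp(16)1Yey/+ mice (SE 0.24, limma unadjusted p = 0.046), or -0.36 without replicate 1 (limma unadjusted p = 0.14). In the interaction, Lamc3 (-1.10, limma unadjusted p = 0.035) and Agrn (-0.75, limma unadjusted p = 0.046) did, and without Dp(16)1Yey replicate 1 their unadjusted p-values in limma were 0.067 and 0.097. Among 17 proteoglycans and partners of fibrils, 13 were lower in 189N3 mice (median -0.15) and 10 in Dp(16)1Yey/+ mice (median -0.08). Postn (periostin) and Thbs2 (thrombospondin 2), which bind fibrillar collagen, were at 0.86 (limma unadjusted p = 0.022) and 0.75 (limma unadjusted p = 0.032) in Dp(16)1Yey/+ mice and at -0.54 and -0.69 in 189N3 mice, with differences of 1.39 and 1.43. Without Dp(16)1Yey replicate 1 they were at 0.54 (limma unadjusted p = 0.059) and 0.48 (limma unadjusted p = 0.098) in that model.

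Marker lists of other tissues were set beside the type I and VI collagens, and the lists did not all have the direction of type I collagen. In 189N3 mice 41.3% of named loci were lower, and 1.05% of all loci were lower at an unadjusted p-value of 0.05 in limma. In Dp(16)1Yey/+ mice 57.2% of named loci were lower, and 1.71% of all loci were higher and 1.82% lower at that threshold. The summed level of 17 meningeal fibroblast markers was 2074 to 3813 in 189N3 mice and 2988 to 4900 in their littermates, and 11 of 13 tested were lower (median -0.71), with Igf2 at -0.71 and Crabp2 at -1.02 reaching an unadjusted p-value under 0.05. The defining transcription factor gene Foxc1 was detected throughout, Foxc2, Foxd1 and Twist1 had means under 10, and 0 markers of the list were at 0 in all libraries. In Dp(16)1Yey/+ mice 7 of 11 were lower (median -0.16), with sums of 1672 to 2789 against 1833 to 2171, and only Igf2 (0.75) reached the threshold. Without the library labelled replicate 1, 4 were higher and 7 lower (median -0.16), and 1 marker in each direction reached the threshold. Igf2 was at 1651 in the library labelled replicate 1 and at 619 to 729 in the other Dp(16)1Yey/+ libraries, and without replicate 1 its log2 fold change was 0.43 (limma unadjusted p = 0.047). Skin markers were lower in 189N3 mice for 9 of 9 tested genes (7 with an unadjusted p-value under 0.05), with sums of 482 to 765 against 708 to 2783. In Dp(16)1Yey/+ mice 4 of 6 were higher (median 0.21), and 2 of 5 without replicate 1 (median -0.01). Skeletal muscle markers were lower for 5 of 5 in 189N3 mice (109 to 169 against 160 to 376) and higher for 4 of 4 in Dp(16)1Yey/+ mice (42.5 to 645 against 43.2 to 87.0), with medians of 1.16 with and 0.31 without replicate 1 in the latter. Cartilage and bone markers were lower for 5 of 6 in 189N3 mice (403 to 547 against 423 to 707) and higher for 4 of 6 in Dp(16)1Yey/+ mice (248 to 510 against 230 to 321), with medians of 0.45 with and 0.25 without replicate 1.

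In 189N3 mice, 1.05% of all loci were lower at an unadjusted p-value of 0.05 in limma. Erythroid markers, which mark red blood cells, were lower for 8 of 8 there, all with an unadjusted p-value under 0.05 and summing to 13943 to 22261 against 34028 to 54488. Their means were higher for 8 of 8 in Dp(16)1Yey/+ mice (median 1.23), where the sum was 55948 in the library labelled replicate 1 and 6162 in replicate 0, the libraries with the most and the least type I collagen of that group. Without replicate 1, 7 of 8 were higher with a median of 0.57. The globin genes Hbb-y and Hba-x were at 5846 and 1315 in the library labelled replicate 1. In the other Dp(16)1Yey/+ libraries Hbb-y was at 1.98 to 236.5 and Hba-x at 7.91 to 102. In the littermates they were at 86.4 to 154 and at 13.0 to 54.6. Of named loci, 58.7% were higher in 189N3 mice (median 0.04) and 57.2% were lower in Dp(16)1Yey/+ mice (median -0.05). Endothelial markers were higher for 11 of 15 in 189N3 mice (median 0.05) and lower for 11 of 15 in Dp(16)1Yey/+ mice (median -0.37). Without 189N3 replicate 2, 7 of 15 were higher (median -0.08, beside -0.10 over named loci). Without Dp(16)1Yey replicate 1, 12 of 15 were lower (median -0.25, beside -0.06 over named loci). Mural cell markers had medians of 0.05 and -0.25, of which the first was -0.17 without 189N3 replicate 2 and the second -0.38 without Dp(16)1Yey replicate 1. Choroid plexus markers had medians of -0.09 and -0.23, the second being -0.42 without Dp(16)1Yey replicate 1. Hippocampal markers had a median of 0.05 in 189N3 mice (6 of 10 higher), which was -0.03 without replicate 2, and of -0.31 in Dp(16)1Yey/+ mice (7 of 10 lower), which was -0.17 without replicate 1. The library labelled Dp(16)1Yey replicate 1 stood apart at Prox1, a gene of dentate granule cells, with 161 against 248 to 712 in the other Dp(16)1Yey/+ libraries and 505 to 856 in the littermates. Neurod6, a gene of pyramidal neurons, was higher in all 4 Dp(16)1Yey/+ libraries (10971 to 20161) than in the littermates (8965 to 10816), with a log2 fold change of 0.60 (SE 0.19, limma unadjusted p = 0.0084). The part of these tissues in the collagen values was not tested.

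**Figure D4:**
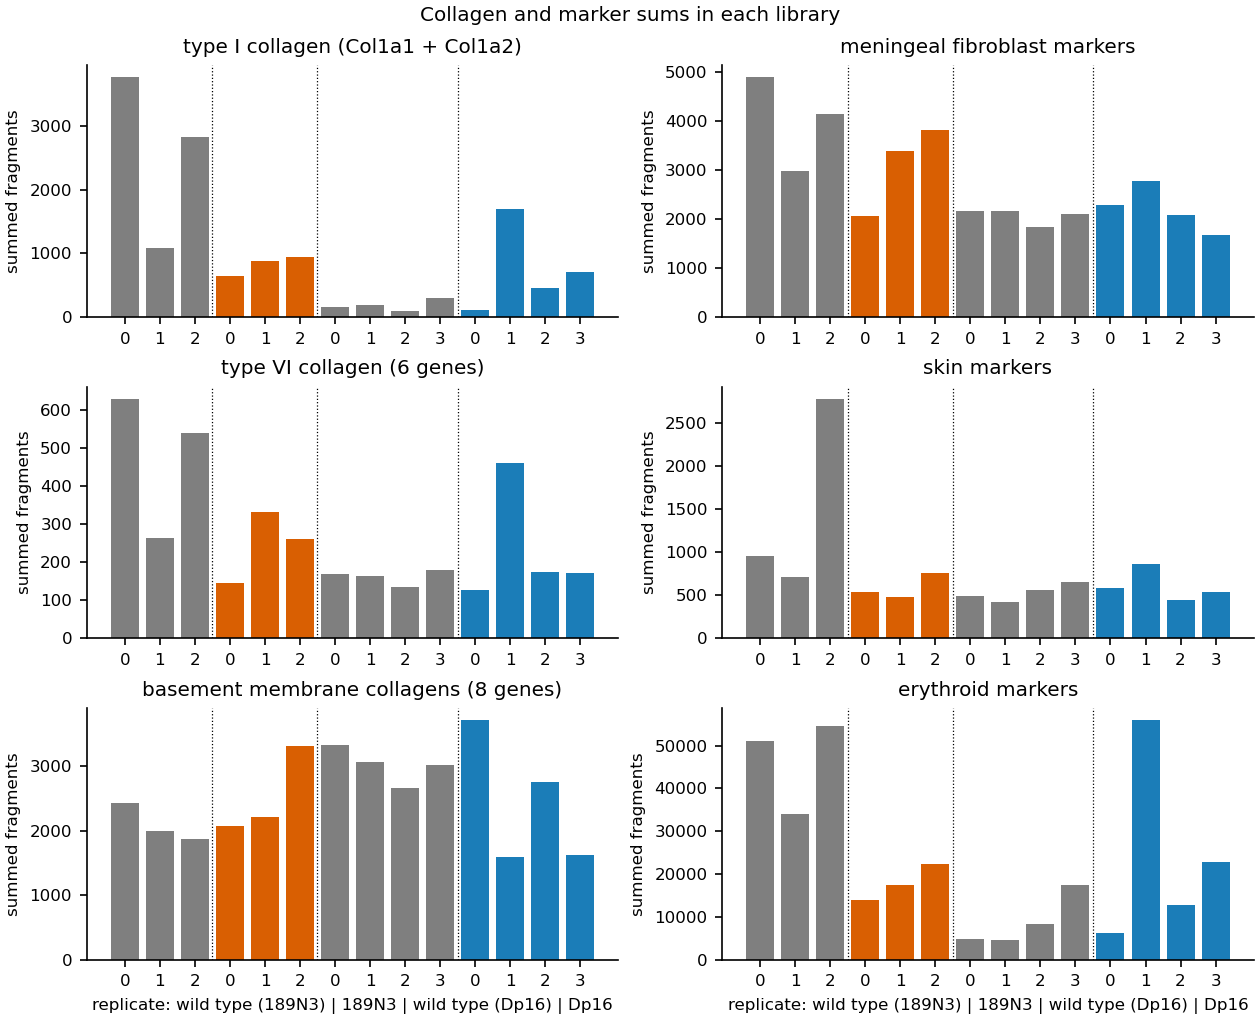
Summed normalized fragments in each library (bars, replicate numbers on the horizontal axis, groups parted by dotted lines) of type I, type VI and basement membrane collagens (left) and of meningeal fibroblast, skin and erythroid markers (right). The type I sum and the erythroid sum are both high in wild-type replicates 0 and 2 of the 189N3 line and in the library labelled Dp(16)1Yey replicate 1. The basement membrane sum is lowest in that library (1591), beside 1627 in Dp(16)1Yey/+ replicate 3.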

How the data were processed

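RNA-seq was performed by the authors on stranded libraries of total RNA (the labels list polyA RNA) with paired-end reads. Per the labels and the study's methods, they used Bowtie and TopHat (mm10) and the Cufflinks suite, whose versions are not given in the sources used here. The deposited gene table gives a signal per assembled locus, that is, fragments over a size factor of the library, and the deposited isoform table splits this signal among transcripts. Total fragments per library were 20809131 to 29098453, recovered from the steps of the values (100% whole within 0.10 of a fragment); the count of fragments limits the precision of collagens with a mean near 10. Rows were named through the deposited map from transcripts to symbols: of 49110 loci with a mean of at least 1, 48925 were matched to the map locus whose isoforms sum to the same values in all 14 libraries, and 17469 received a symbol (17423 different genes). Where a symbol had several rows, the one with the highest mean would be kept; each collagen had 1.

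The scale was log2(value + 1), which understates changes of low genes, and loci needed a mean of 10 or more in the samples compared. limma 3.58.1 (R 4.3.3, empirical Bayes trend) was run separately for each model over all loci, and over 14 libraries for the interaction, with Benjamini-Hochberg adjustment at 0.05. Exact two-sided permutation tests used SciPy 1.17.1 (Python 3.11.15) and cannot go below 0.10 for 3 against 3 or 0.029 for 4 against 4. Groups come from the labels. They do not say outright that a library is a single embryo, and p-values measure the spread between these samples. edgeR 4.0.16 and DESeq2 1.42.0 were run on recovered fragments as alternatives for the 189N3 comparison; in 4 libraries of the other model the value of 1 fragment lies too near to 1 to be told from rounding, and no count test was made there or for the interaction. Coordinates and exon lengths are from GENCODE M21 (GRCm38, the assembly of mm10). Fits were run on simulated counts with the same dispersion at all loci. These held no deviating or nearly alike libraries, so they cannot show how the fits behave on such libraries. Alternatives were pseudocounts of 0.1 and 10, no filter or a mean of 100, median-ratio size factors, quantile normalization, a replicate block, no trend, 1 fit of all 4 groups, the log2 ratio of group means, nearly alike littermates averaged, and each library left out in turn. All collagens could be named, and from each list of partner genes those with the 3 smallest p-values per comparison or without overlap of the groups, from each list of markers those with the highest levels. Marker genes named beside a count of those passing 0.05, and Prox1, Hbb-y and Hba-x, were chosen after their values were seen. Values of the lists without Dp(16)1Yey replicate 1 or 189N3 replicate 2 were added after the data were seen. The members, classes and lists were chosen with earlier results of these data known. Same-numbered samples did not vary together (correlation of deviations -0.44 to -0.03), so numbers were not taken as pairs.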

Additional observations from a re-analysis of the deposited data

Results flagged for a closer look

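In groups of 4 libraries, the highest or lowest library was set against the rest by Dixon's criterion for 74 combinations of collagen and group (37 genes in 2 groups), of which 5 passed; chance flags about 1 in 20 groups. Col1a1 in wild-type littermate replicate 3 of the Dp(16)1Yey line stood at 134, against 20.6 to 33.5 in the other littermates. The library nearly alike to it, replicate 2, was at 33.5. Col4a3 in littermate replicate 1 of the same line stood at 5.94, against 11.1 to 11.9 in the other littermates, a difference of a few fragments. In the library labelled Dp(16)1Yey replicate 1, Col6a2 stood at 72.9 (25.5 to 30.2 in the other Dp(16)1Yey/+ libraries) and Col8a1 at 54.1 (11.1 to 13.8), the library that also held the highest type I collagen and erythroid sums of its group. Col12a1 in Dp(16)1Yey/+ replicate 2 stood at 2180, against 879 to 1101 in the other Dp(16)1Yey/+ libraries and 777 to 1759.5 in the littermates. The groups of 3 of the 189N3 line were not examined in this way.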

How the results depend on the processing

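The direction of a collagen's log2 fold change turned under another setting with all libraries as follows: in the 189N3 comparison Col22a1 to 0.0044 (median-ratio size factors), Col22a1 to 0.015 (quantile normalization), Col22a1 to 0.011 (DESeq2), Col11a1 to 0.011 (median-ratio size factors), Col4a6 to -0.0040 (log2 ratio of group means), Col4a6 to -0.019 (edgeR quasi-likelihood); in the Dp(16)1Yey comparison Col6a1 to 0.14 (log2 ratio of group means), Col23a1 to -0.020 (median-ratio size factors), Col23a1 to -0.00088 (quantile normalization), Col23a1 to -0.022 (log2 ratio of group means), Col23a1 to -0.00046 (nearly alike littermate libraries averaged), Col11a2 to 0.022 (pseudocount 10), Col11a2 to 0.0030 (quantile normalization), Col11a2 to 0.099 (log2 ratio of group means), Col15a1 to 0.0099 (log2 ratio of group means), Col12a1 to -0.0041 (median-ratio size factors); in the interaction Col4a4 to -0.046 (median-ratio size factors), Col4a4 to -0.10 (quantile normalization), Col4a4 to -0.053 (nearly alike littermate libraries averaged). In the 189N3 comparison 0 loci passed an adjusted p-value of 0.05 in limma (672 had an unadjusted p-value under 0.05), and 3 passed with median-ratio size factors, 15 in DESeq2 and 0 in edgeR. The 9 collagens with an unadjusted p-value under 0.05 became 5 with a mean of at least 100 and 5 in 1 fit of all 4 groups, the 5 of the Dp(16)1Yey comparison became 2 with a mean of at least 100, 3 with median-ratio size factors, 3 with no trend and 0 with nearly alike littermates averaged, and the 7 of the interaction became 3 with a mean of at least 100, where the median of the other collagens was 0.063. With the replicate number as a block, 72 loci and both type I genes passed in the 189N3 comparison (limma adjusted p = 0.0020 for Col1a1 and 0.0059 for Col1a2) and 11 collagens had an unadjusted p-value under 0.05, while the block left 0 loci and 5 collagens in the Dp(16)1Yey comparison and 0 loci and 7 collagens in the interaction. The numbers were not taken as pairs, since same-numbered samples deviated apart (correlations of -0.44 to -0.03) and 0 of 7 samples correlated best with their own number. With each library left out in turn, 12 collagens crossed 0 in the 189N3 comparison: Col11a1 from -0.16 to 0.13, Col22a1 from -0.16 to 0.14, Col23a1 from -0.22 to 0.11, Col25a1 from -0.40 to 0.69, Col28a1 from -0.26 to 0.11, Col4a2 from -0.0011 to 0.44, Col4a4 from -0.023 to 0.52, Col4a5 from -0.099 to 0.19, Col4a6 from -0.12 to 0.15, Col9a1 from -0.21 to 0.33, Col9a2 from -0.40 to 0.18, Col9a3 from -0.16 to 0.48. With each library left out in turn, 16 collagens crossed 0 in the Dp(16)1Yey comparison: Col11a2 from -0.24 to 0.33, Col12a1 from -0.26 to 0.22, Col15a1 from -0.39 to 0.14, Col19a1 from -0.56 to 0.12, Col23a1 from -0.16 to 0.13, Col24a1 from -0.17 to 0.36, Col27a1 from -0.41 to 0.054, Col3a1 from -0.059 to 0.82, Col4a3 from -0.17 to 0.47, Col4a5 from -0.41 to 0.033, Col5a2 from -0.11 to 0.24, Col6a1 from -0.57 to 0.30, Col8a1 from -0.45 to 0.28, Col8a2 from -0.25 to 0.72, Col9a2 from -0.44 to 0.062, Col9a3 from -0.32 to 0.11. In the interaction 8 did so: Col15a1 from -0.52 to 0.016, Col23a1 from -0.10 to 0.23, Col27a1 from -0.10 to 0.54, Col2a1 from -0.00086 to 0.45, Col4a4 from -0.25 to 0.29, Col4a5 from -0.42 to 0.019, Col9a2 from -0.42 to 0.17, Col9a3 from -0.58 to 0.063. Over the same fits without 1 library, Col1a1 ranged from -2.10 to -1.14 and Col1a2 from -1.95 to -1.09 in the 189N3 comparison. Loci passing the adjusted threshold ranged from 0 to 28 in the 189N3, 0 to 3 in the Dp(16)1Yey and 0 to 1 in the interaction fits, and collagens with an unadjusted p-value under 0.05 from 4 to 14, 1 to 9 and 5 to 14. The median of the other collagens ranged from -0.40 to -0.057, -0.16 to 0.084 and 0.28 to 0.68. The cause of these shifts was not tested. Beside the main fits, the share of all loci with an unadjusted p-value under 0.05 was taken only without Dp(16)1Yey replicate 1 or 189N3 replicate 2. In the other fits, a changed count of collagens cannot be told apart from a shift of all loci. Summing all rows of a symbol changed nothing, as each collagen had 1 row. Collagens with a mean near 10 rest on few fragments.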
